A study of Arabidopsis thaliana with 6 samples.

Results

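The transcripts described here belong to 4 genes of the salicylate and pipecolate branches of systemic resistance in Arabidopsis thaliana, SARD4 (AT5G52810), GRX480 (AT1G28480), SAG101 (AT5G14930) and LLP1 (AT5G03350). Each was read by the only probe set naming it as a single gene, so the 4 genes stood among 8854 genes named in that way. Distal leaves were harvested 24 h after a primary leaf was infiltrated, in the G3P group with leaf exudate plus glycerol-3-phosphate (G3P) and in the mock group with exudate lacking added G3P. The labels name MgCl2 beside the exudate for both groups, so mock plants had also received exudate, and the samples analysed here hold no untreated leaf. All plants were of the Columbia ecotype (Col-0), 3 to 4 weeks old, kept at 22 degrees C and 65% relative humidity under a 14 h photoperiod. Each group had 3 arrays, each from its own set of plants.

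Systemic acquired resistance primes the uninfected leaves of a plant after a first, local infection. Salicylate is perceived by the NPR proteins, which act with TGA transcription factors on defence genes, and pipecolate, made from lysine, is hydroxylated to a signal that moves to and amplifies the response in distal leaves. G3P is itself regarded as a mobile signal of this response. Within the 4 genes, SARD4 encodes the reductase that completes pipecolate synthesis, and GRX480 a salicylate-induced glutaredoxin that binds TGA factors. SAG101 encodes a lipase-like protein that pairs with EDS1 in immune signalling, and LLP1 a legume-lectin-like protein linked to systemic signalling in the recipient leaf.

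The 6 arrays gave intensities for 16129 probe sets, with median signals between 291 and 338 and 2% trimmed means between 747 and 754, so they had been brought to a common level. G3P replicate 3 stood apart: across probe sets, which are not independent, its r with each other array was 0.842 to 0.913, against 0.930 to 0.961 among the other 5. Of the leaf mesophyll markers, 5 of 9 were named, and their log2 signals lay between 12.43 and 14.97 on all arrays. Their summed signal was 42978 to 99878 in G3P leaves, against 98891 to 118160 in mock leaves. The lowest sum was that of G3P replicate 3, on which 4 of the 5 markers had their lowest value. FAMA, the only guard cell marker named of 3 listed, had log2 signals of 8.001 to 8.42 in G3P leaves and 7.67 to 8.52 in mock leaves. AGL42, the only root marker named of 3 listed, was low throughout, at 4.94 to 6.28 in G3P leaves and 4.47 to 6.63 in mock leaves, while 0 of 3 flower and 0 of 3 senescence markers were named. In whole leaves, fewer cells of a type and less RNA per cell cannot be told apart.

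No difference between G3P and mock leaves in these 4 genes passed the test against the spread between arrays. SARD4 was nominally higher in G3P leaves (1.71-fold), GRX480 was too (1.52-fold), SAG101 was nearly level (0.954-fold) and LLP1 was nominally lower (0.676-fold), each taken from log2(signal + 16). Of the 4 genes 0 passed an adjusted p under 0.05 (limma, Benjamini-Hochberg over the whole table), where the share over all probe sets was 0%. At an unadjusted p under 0.05 limma called 0 of the 4, against 3.08% of all probe sets, and the G3P and mock ranges were separate for 0 of the 4, against 8.64%. The median log2 difference was 0.27 for the 4 genes and -0.03 for all probe sets. Without G3P replicate 3 this median was -0.22 for the 4 genes, of which 1 was above 0, and -0.01 for all probe sets. On G3P replicate 3, 3 of the 4 departed: SARD4 and GRX480 were far above, and LLP1 far below, their values on every other array, while SAG101 was close to its next highest array.

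**Figure D1:**
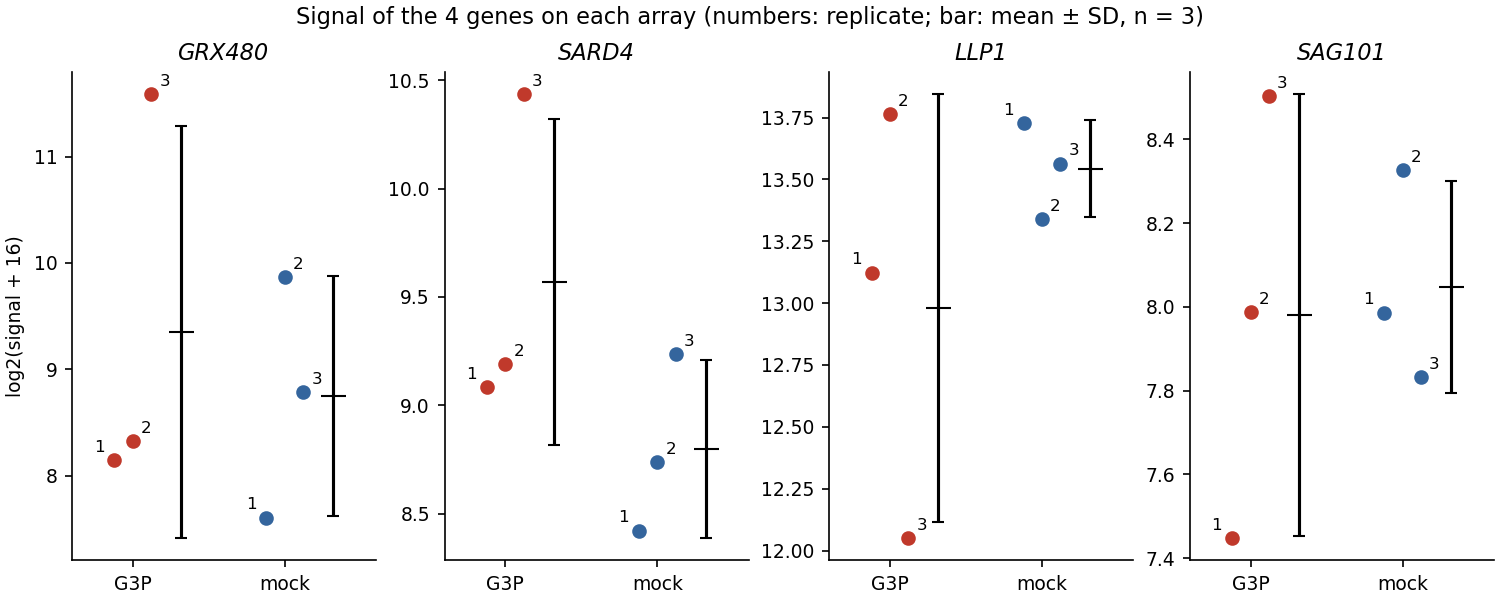
Each point is the log2(signal + 16) of a gene on an array, numbered by replicate, with G3P leaves in red on the left and mock leaves in blue on the right of each panel; black bars give the mean ± SD (n = 3), and the vertical axes differ between panels and do not start at 0. G3P replicate 3 is the highest array for SARD4, GRX480 and SAG101 and the lowest for LLP1, and the groups overlap for all 4 genes.

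SARD4 (probe set 248330_at) had signals of 526, 568 and 1368 on G3P replicates 1, 2 and 3, against 327, 411 and 587 on mock replicates 1, 2 and 3. On the log2(signal + 16) scale used for all tests these were 9.08, 9.19 and 10.43 in G3P leaves and 8.42, 8.74 and 9.24 in mock leaves. All G3P arrays were above mock replicates 1 and 2, and only G3P replicate 3 was above mock replicate 3, so the groups overlapped. The means were 9.57 ± 0.75 in G3P leaves and 8.80 ± 0.41 in mock leaves (SD, n = 3 each). The log2 difference was 0.77 ± 0.40 (SE, limma, 95% interval -0.15 to 1.69). This was the smallest p of the 4 genes, 0.0896 unadjusted and 0.912 after adjustment over all probe sets (limma). An exact two-sided permutation test over the 6 arrays gave p = 0.3, where 3 arrays against 3 cannot go below 0.1. G3P replicates 1 and 2 differed by 0.11, and without G3P replicate 3 the log2 difference was 0.34 (95% interval -0.32 to 1.002). The interval from all arrays runs from 0.901-fold to 3.23-fold, so in this fit a doubling of SARD4 transcript was not excluded, nor was a lack of change. With the replicate number added to the fit as a block, the 95% interval of the log2 difference was 0.16 to 1.39. The unadjusted p was then 0.0216 and the adjusted p 0.880 (limma), but the labels do not say that the numbers pair the plants.

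GRX480 (261443_at) had signals of 267, 304 and 3054 on G3P replicates 1, 2 and 3, against 178, 915 and 425 on mock replicates 1, 2 and 3. The log2 values were 8.14, 8.32 and 11.58 in G3P leaves and 7.60, 9.86 and 8.78 in mock leaves. G3P replicates 1 and 2 lay inside the mock range, below mock replicates 2 and 3, and G3P replicate 3 lay 1.72 above the highest mock array. The means were 9.35 ± 1.94 in G3P leaves and 8.75 ± 1.13 in mock leaves (SD, n = 3 each). The log2 difference was 0.60 ± 0.94 (SE, limma, unadjusted p = 0.542, adjusted p = 0.935). The 95% interval, from -1.58 to 2.78, was the widest of the 4 genes. The direction rested on G3P replicate 3: without it the difference was -0.52, and the ratio of median signals, taken without a pseudocount, was 0.716. The difference was 0.03 without mock replicate 1 and 1.16 without mock replicate 2.

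GRX480 also varied widely among mock leaves, where it spanned 2.26 log2 units. Of all probe sets 98.0% had a smaller SD than GRX480 over the 3 mock arrays, and 98.7% a smaller SD over all 6. SARD4 spanned 0.81 in mock leaves, with 67.4% of probe sets below its mock SD, SAG101 spanned 0.49 with 40.5% below, and LLP1 0.39 with 27.9% below. GRX480 was thus the most variable of the 4 among mock leaves. LLP1 was the least variable there. In G3P leaves the span was 3.44 for GRX480, 1.35 for SARD4, 1.05 for SAG101 and 1.71 for LLP1, with G3P replicate 3 at an end of each. These shares describe the probe sets and carry no test.

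SAG101 (246600_at) had signals of 159, 238 and 347 on G3P replicates 1, 2 and 3, against 238, 305 and 212 on mock replicates 1, 2 and 3. The log2 values were 7.45, 7.99 and 8.50 in G3P leaves, which enclosed those of mock leaves, 7.99, 8.33 and 7.83. The means were 7.98 ± 0.53 in G3P leaves and 8.05 ± 0.25 in mock leaves (SD, n = 3 each). The log2 difference was -0.07 ± 0.32 (SE, limma, unadjusted p = 0.834, adjusted p = 0.978). The 95% interval ran from -0.80 to 0.66, or 0.574-fold to 1.58-fold, so a change of SAG101 as large as a doubling lay outside it. For a decrease that large, this did not hold with every array left out. The lower end was -1.07 without mock replicate 3, -1.01 without mock replicate 1 and -1.005 without G3P replicate 3. The sign of the difference changed with the array left out. Dropping G3P replicate 1 gave 0.197, dropping mock replicate 2 gave 0.07, and dropping G3P replicate 3 gave -0.33.

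LLP1 (250942_at) had signals of 8904, 13881 and 4227 on G3P replicates 1, 2 and 3, against 13557, 10358 and 12087 on mock replicates 1, 2 and 3. The log2 values were 13.12, 13.76 and 12.05 in G3P leaves and 13.73, 13.34 and 13.56 in mock leaves. G3P replicate 2 was the highest of all arrays, while G3P replicates 1 and 3 were below every mock array. The means were 12.98 ± 0.86 in G3P leaves and 13.54 ± 0.19 in mock leaves (SD, n = 3 each). The log2 difference was -0.57 ± 0.40 (SE, limma, 95% interval -1.49 to 0.36, unadjusted p = 0.196, adjusted p = 0.912). An exact two-sided permutation test over the arrays gave p = 0.4. The difference was -0.10 without G3P replicate 3 and -0.96 without G3P replicate 2, where the unadjusted p was 0.0285 and the adjusted p 0.652 (limma). LLP1 was the only gene of the 4 to keep a negative sign with each array left out, as SARD4 kept a positive one.

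**Figure D2:**
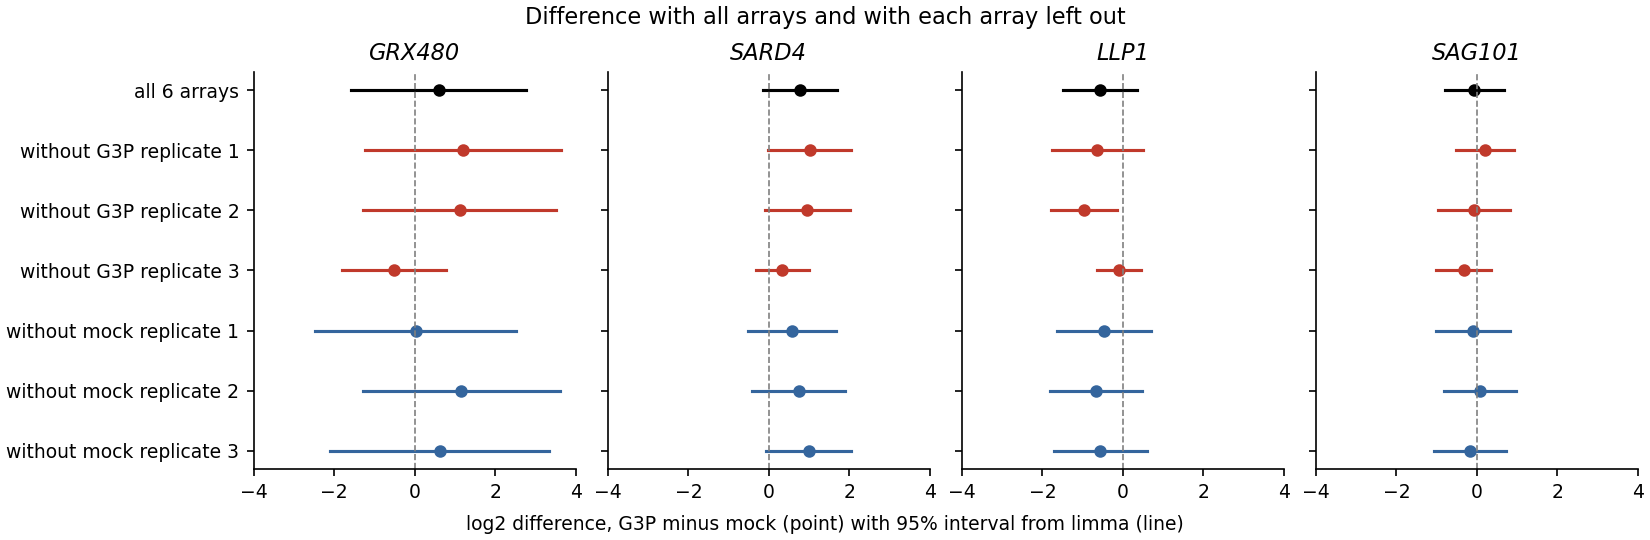
The log2 difference, G3P minus mock, of each gene is drawn as a point with its 95% interval from limma as a line, for all 6 arrays (black), with each G3P array left out (red) and with each mock array left out (blue); the dashed line marks no difference. Without G3P replicate 3 the estimates were 0.34 for SARD4, -0.52 for GRX480, -0.33 for SAG101 and -0.10 for LLP1, and every interval but that of LLP1 without G3P replicate 2 includes 0.

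On G3P replicate 3 the signal of GRX480 was 3054, against 178 to 915 on the other 5 arrays, and that of SARD4 was 1368, against 327 to 587. LLP1 stood at 4227 there, against 8904 to 13881, and SAG101 at 347, against 159 to 305. The gap to the nearest other array was 1.72 log2 units upward for GRX480, 1.199 upward for SARD4, 1.07 downward for LLP1 and 0.18 upward for SAG101. Thus 3 of the 4 genes lay beyond all other arrays by more than 1 log2 unit, as did 7.58% of all probe sets, 609 above and 614 below. This limit of 1 log2 unit was chosen after the data were seen, and so was the array. Over all probe sets 1.43% lay farther above the other arrays than GRX480, 2.79% farther above than SARD4 and 3.34% farther below than LLP1. The leaf marker sum given above was also lowest on that array, and the part it has in these values was not tested.

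None of the 6 relations between the genes across the 6 arrays passed its test after adjustment. Pearson's r was 0.80 for GRX480 and SARD4 (exact two-sided permutation p = 0.0792, Spearman's rho 0.66, p = 0.175) and 0.78 for GRX480 and SAG101 (exact permutation p = 0.0708, rho 0.71, p = 0.136). It was -0.86 for GRX480 and LLP1 (exact permutation p = 0.0486, rho -0.54, p = 0.297) and -0.85 for SARD4 and LLP1 (exact permutation p = 0.0667, rho -0.37, p = 0.497). SAG101 was more loosely tied to SARD4 (r = 0.42, exact permutation p = 0.399, rho 0.26, p = 0.658) and to LLP1 (r = -0.48, exact permutation p = 0.36, rho -0.20, p = 0.714). After Benjamini-Hochberg adjustment over the 6 relations the smallest adjusted p was 0.119 for r and 0.525 for rho (exact permutation tests).

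These relations rested largely on G3P replicate 3. Over the other 5 arrays r was 0.15 for GRX480 and SARD4, -0.34 for GRX480 and LLP1, -0.15 for SARD4 and LLP1 and 0.58 for GRX480 and SAG101. For SARD4 and SAG101 it turned to -0.44, and for LLP1 and SAG101 to 0.41. With the 2 arrays farthest from the median of the first-named gene left out (n = 4), r was 0.90 for GRX480 and SARD4, -0.11 for GRX480 and LLP1, -0.14 for GRX480 and SAG101, 0.47 for SARD4 and LLP1, -0.60 for SARD4 and SAG101 and -0.68 for LLP1 and SAG101. Mock replicate 2 stood off the relation of GRX480 and SARD4, as the second highest array for GRX480 and the second lowest for SARD4, and r was 0.97 without it. Among the 10 pairs of arrays without G3P replicate 3, GRX480 and SARD4 had the same order in 7, GRX480 and SAG101 in 7, LLP1 and SAG101 in 7, SARD4 and LLP1 in 5, GRX480 and LLP1 in 4 and SARD4 and SAG101 in 4. With the difference between treatments removed, as deviations from the group means, r was 0.86 for GRX480 and SARD4, 0.83 for GRX480 and SAG101, -0.88 for GRX480 and LLP1, -0.80 for SARD4 and LLP1, 0.62 for SARD4 and SAG101 and -0.61 for LLP1 and SAG101, with G3P replicate 3 included.

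**Figure D3:**
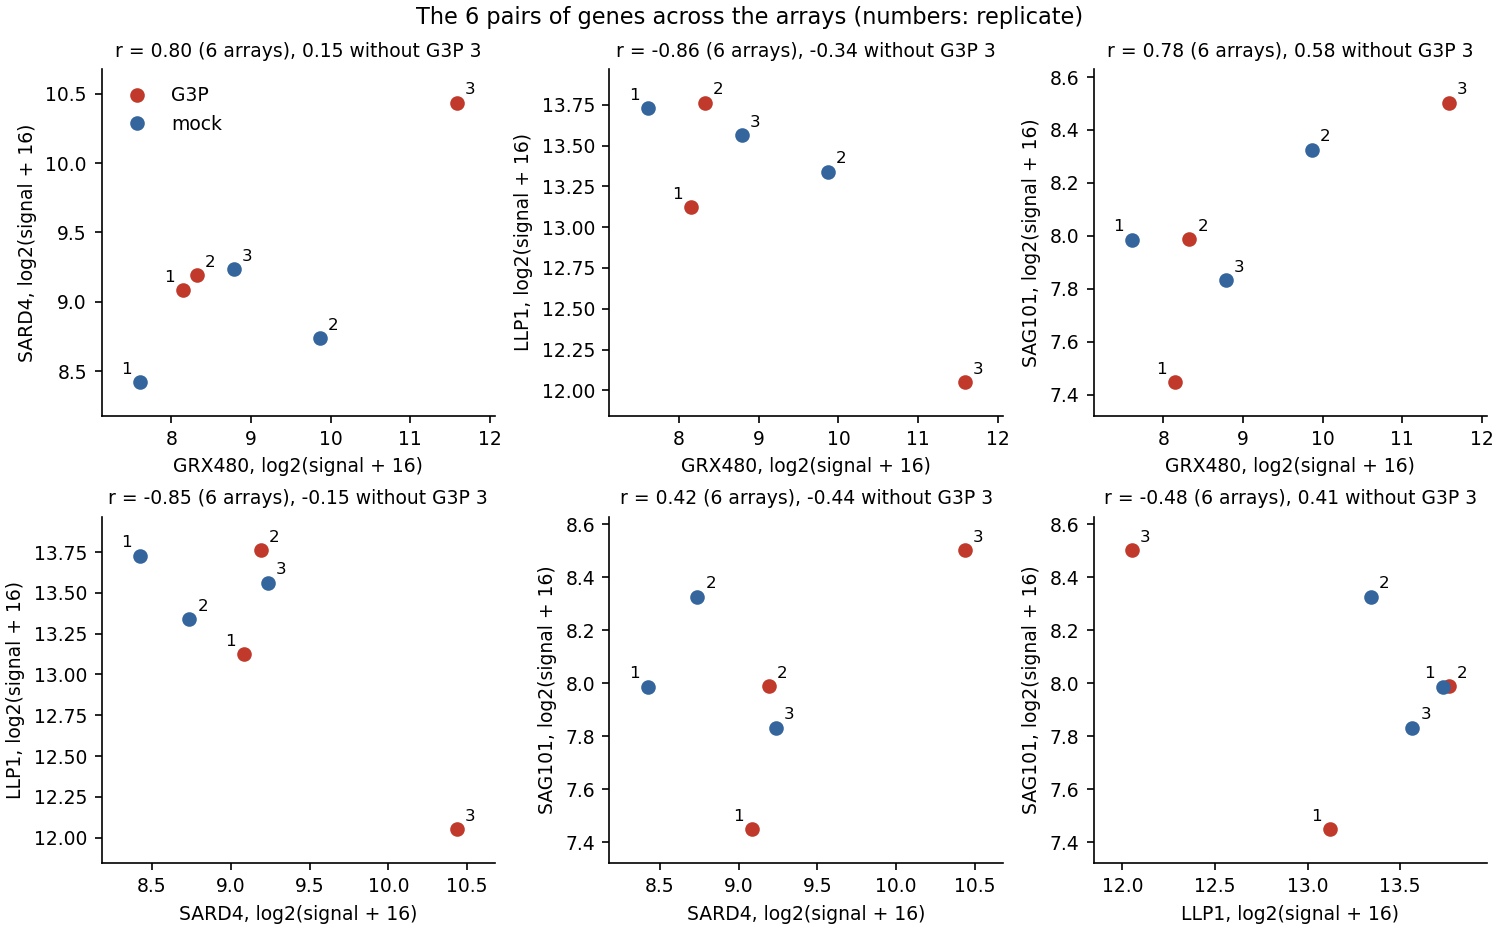
Each panel sets the log2(signal + 16) of a gene against that of another on the 6 arrays, numbered by replicate, with G3P leaves in red and mock leaves in blue; axes do not start at 0. G3P replicate 3 lies at a corner of every panel, and r in the panel titles is given with and without it.

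Other genes of the same pathways were few among the named probe sets, 9 of the 74 genes listed, the 4 above included. None of the salicylate synthesis genes (0 of 9), the receptors and transcription factors of salicylate perception (0 of 19) or the shared transcriptional regulators (0 of 5) had a probe set naming it alone, and they were not analysed here. Between G3P and mock leaves the log2 difference was above 0 for 6 of the 9 and below 0 for 3. Its median was 0.60, against -0.03 over all probe sets, and the share above 0 compares with 46.5% of all probe sets. None passed an adjusted p under 0.05 (0 of 9, limma), where the share over all probe sets was 0%. At an unadjusted p under 0.05 limma also called 0 of the 9, against 3.08% of all probe sets. Without G3P replicate 3, 2 of the 9 were above 0 and 7 below, and the median was -0.25, against -0.01 over all probe sets.

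LKR/SDH (253373_at), the enzyme that degrades lysine, from which pipecolate is also made, had log2 signals of 7.11, 6.99 and 8.28 on G3P replicates 1, 2 and 3, against 6.82, 7.04 and 8.05 on the mock replicates. Replicate 3 was the highest array of both groups, and the groups overlapped widely (difference 0.16 ± 0.46, SE, limma, adjusted p = 0.962). UGT76B1 (256252_at), a glycosyltransferase that conjugates salicylate, had 4.25, 5.02 and 9.35 in G3P leaves, against 5.10, 4.30 and 6.33 in mock leaves. It was close to 4, the lowest value the scale allows, on most arrays, and its difference of 0.96 ± 1.25 (SE, limma, adjusted p = 0.919) turned to -0.61 without G3P replicate 3.

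BSMT1 (259286_at), which methylates salicylate and benzoate, had 4.17, 4.096 and 11.19 in G3P leaves, against 4.56, 4.37 and 4.33 in mock leaves. In linear units that was a signal of 2317 on G3P replicate 3, against 1.09 to 7.63 on the other 5 arrays. Its difference was the largest of the 9 genes, 2.06 ± 1.71 (SE, limma, unadjusted p = 0.263, adjusted p = 0.912). Without G3P replicate 3 it was -0.29. PDF1.2A (249052_at), a jasmonate-responsive defensin gene that GRX480 represses when overexpressed, had 6.56, 8.18 and 10.03 in G3P leaves, against 4.72, 6.64 and 7.96 in mock leaves. Its signals ran over several units in both groups, and of the 9 genes it had the second largest difference, 1.81 ± 1.01 (SE, limma, unadjusted p = 0.110, adjusted p = 0.912), with 0.93 without G3P replicate 3 and 0.95 without mock replicate 1. GRX480 and PDF1.2A were both highest on G3P replicate 3 and both lowest on mock replicate 1. The same held for SARD4 and LKR/SDH, so it did not set this pair apart.

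EDS1B (252403_at), a close copy of the EDS1 partner of SAG101, had 8.46, 9.12 and 9.001 in G3P leaves, against 8.95, 9.11 and 8.65 in mock leaves. It was the only gene of the 9 that was neither highest nor lowest on G3P replicate 3 (difference -0.04 ± 0.26, SE, limma, adjusted p = 0.985). Whether transcripts of EDS1, a similar gene, add to this signal was not tested. It spanned under a doubling in mock leaves, 0.46 log2 units, as did SAG101 and also SARD4, LLP1 and BSMT1.

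**Figure D4:**
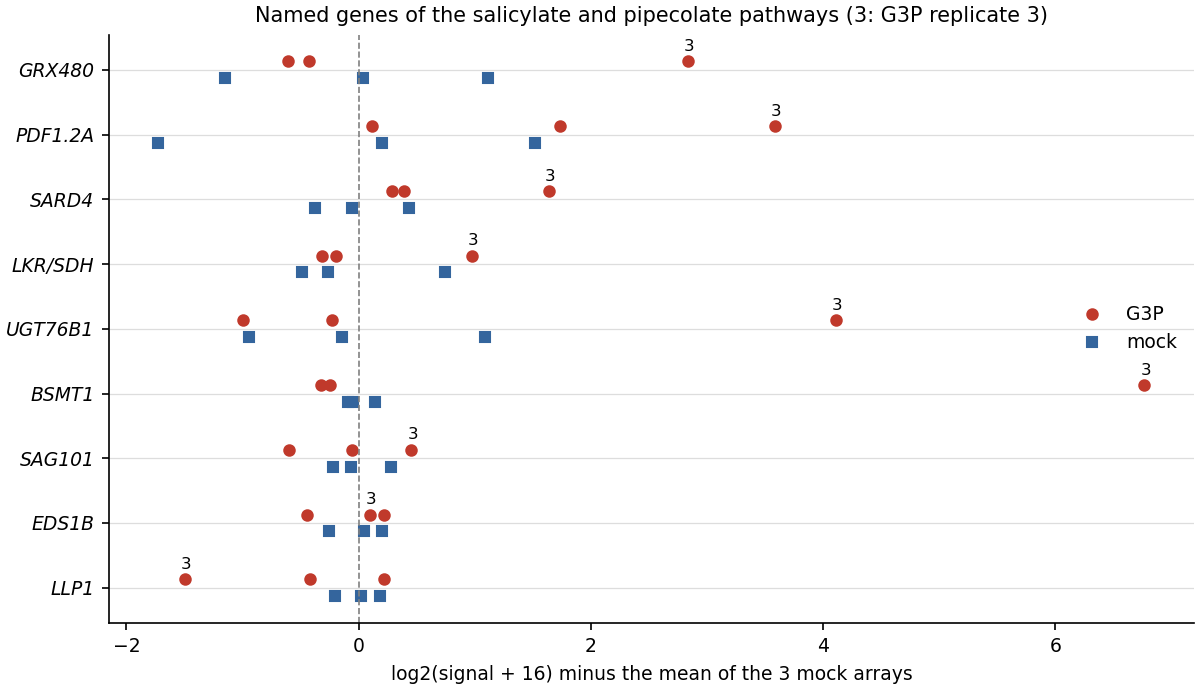
For each of the 9 named pathway genes, points give log2(signal + 16) minus the mean of the 3 mock arrays, with G3P leaves as red circles above mock leaves as blue squares; the point numbered 3 is G3P replicate 3. On this array 7 of the 9 genes are at their highest and LLP1 at its lowest, and BSMT1 and UGT76B1 are raised there from near the bottom of the scale.

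The genes whose profile was most like each of the 4 over the 6 arrays were found among single-gene probe sets with a mean log2 signal of at least 7 and a range no narrower than 0.5 times that of the gene in question. For GRX480, with 532 candidates, they were AT2G18690 (r = 0.99), AT1G62422 (0.98) and AT5G18470 (0.98). AT2G18690 had 7.59, 8.06 and 12.29 in G3P leaves, against 6.78, 9.75 and 8.95 in mock leaves, the same order of arrays as GRX480. For SARD4, with 2619 candidates, they were AT3G23570, AT5G53360 and AT4G29520 (r = 0.99 each). AT3G23570 had 10.81, 10.91 and 12.41 in G3P leaves, against 9.84, 10.42 and 11.18 in mock leaves, again in the order of SARD4.

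For LLP1, with 3403 candidates, the most alike were AT1G32090 (r = 0.996), AT2G35260 (0.99) and AT3G54400 (0.99). AT3G54400 had 8.58, 9.38 and 6.49 in G3P leaves, against 9.35, 8.49 and 8.97 in mock leaves. For SAG101, with 5514 candidates, they were AT1G49050, AT3G50910 and ACA.l (AT1G13210), at 0.97 each. Over the 5 arrays without G3P replicate 3, r of these 12 genes with their partners still lay between 0.93 and 0.99, after they had been chosen for it on all 6. An r of at least 0.9 was reached by 5.08% of the candidates for GRX480, 7.56% for SARD4, 6.11% for LLP1 and 0.816% for SAG101. These are correlations over 6 arrays that include the departing G3P replicate 3. None of the 12 passed between G3P and mock leaves (limma, adjusted p 0.912 to 0.980).

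**Figure D5:**
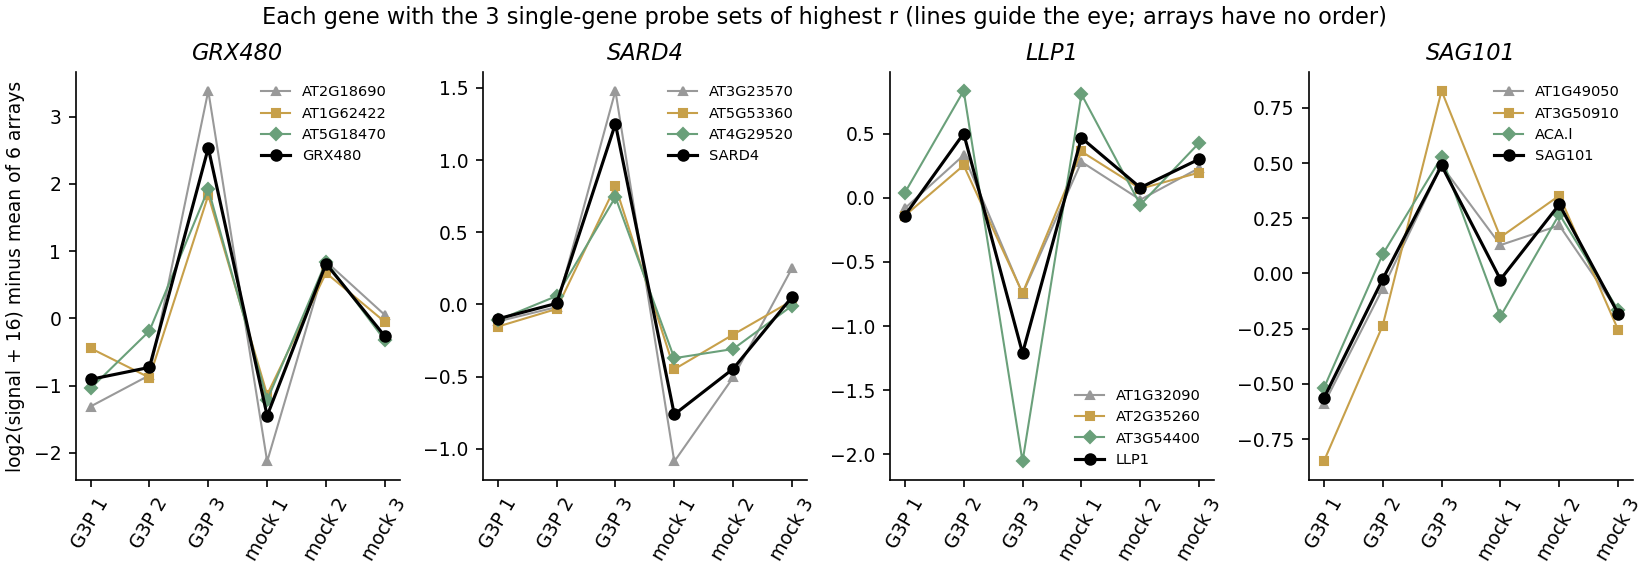
Each panel gives log2(signal + 16) minus its mean over the 6 arrays for a gene (black) and the 3 single-gene probe sets of highest r with it (grey, gold and green), with G3P arrays left of mock arrays; lines only guide the eye. The profiles of GRX480, SARD4 and SAG101 peak on G3P replicate 3, where that of LLP1 is lowest. Those of GRX480 and SARD4 are lowest on mock replicate 1, and that of SAG101 on G3P replicate 1.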

How the data were processed

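Single-colour Affymetrix ATH1 arrays measured transcripts in distal leaves of 3 G3P and 3 mock sets of plants, grouped by their labels. The deposited table holds a linear intensity per probe set and array, made by the authors with Affymetrix Expression Console 1.0, per the submitters' processing notes; how signals were summarized and scaled, and how probe sets were chosen, is not given in the sources used here. Values were used as deposited, since array medians of log2(signal + 16) lay within 0.206 (limit 0.3). The group difference was fitted with limma 3.58.1 in R 4.3.3 (eBayes with a variance trend, 6 arrays together, no covariates, Benjamini-Hochberg adjustment over 16129 probe sets). The fit was also run on simulated data with independent noise and no departing array, so that run does not bear on G3P replicate 3. Differences are on the log2(signal + 16) scale, which compresses the spread of dim probe sets between arrays. A group difference may move either way. With 1 added in place of 16 it was 1.95 against 2.06 for BSMT1, 0.97 against 0.96 for UGT76B1 and 2.21 against 1.81 for PDF1.2A. The rank-sum test of the design text was an alternative, since 3 arrays against 3 cannot give p below 0.1. Correlations used exact permutation of pairings in Python 3.11.15.

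Gene names came from the platform's annotation table, which gives 1 gene for 8950 probe sets, several for 339 and no entry for 6840; only the 8950 are named here. Of the 8950, 8911 matched RefSeq (TAIR10.1), used for names only; neither table gives the symbols SARD4, LLP1 and EDS1B, which follow general usage for their locus tags. All 9 pathway probe sets have the plain _at suffix, given to sets designed to match a single gene. No build is stated for the files, so no coordinates are printed, and no sequences were used here. Members, gene lists and the rule for named genes (the 4 genes, all named genes of a 74-gene pathway list, and for each of the 4 the 3 most alike probe sets) were chosen with earlier results of these data known. The number of arrays limits the precision.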

Additional observations from a re-analysis of the deposited data

How the results depend on the processing

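The count of 0 probe sets past an adjusted p under 0.05 was also 0 in all 15 other limma fits and with the exact rank-sum test, which cannot reach the threshold; probe sets with an unadjusted limma p under 0.05 numbered 496 with all arrays, and leaving out G3P replicate 2 gave 1196, mock replicate 1 233 and mock replicate 2 282, and the cause was not tested. No adjusted p of the 4 genes fell below 0.652 in any fit, with SAG101 left untested without the dimmest 50% of probe sets, where it fell out. SARD4 stayed positive and LLP1 negative in all fits, from 0.34 to 1.01 and from -0.96 to -0.10 with single arrays left out. GRX480 ran from -0.52 to 1.203 and SAG101 from -0.33 to 0.20 in the same way; GRX480 was -0.47 with array quality weights and -0.48 as a log2 ratio of medians, and SAG101 was 0.0016 as such a ratio. For the other pathway genes the ranges with single arrays left out were -0.61 to 1.94 for UGT76B1, -0.29 to 3.26 for BSMT1, -0.25 to 0.53 for LKR/SDH, -0.17 to 0.16 for EDS1B and 0.93 to 2.66 for PDF1.2A; as log2 ratios of medians UGT76B1 was -0.16, BSMT1 -1.22 and EDS1B 0.051, and EDS1B was 0.00047 after centring on array medians. Correlations with single arrays left out ran from 0.15 to 0.97 for GRX480 and SARD4, -0.94 to -0.34 for GRX480 and LLP1, 0.58 to 0.87 for GRX480 and SAG101, -0.92 to -0.15 for SARD4 and LLP1, -0.44 to 0.64 for SARD4 and SAG101 and -0.84 to 0.41 for LLP1 and SAG101. Without the 2 arrays farthest from the median of the first gene, GRX480 and SAG101 gave -0.14, SARD4 and LLP1 0.47 and SARD4 and SAG101 -0.60. The replicate number as a block left each difference as it was, with an unadjusted p of 0.0216 and an adjusted p of 0.880 for SARD4, 0.000511 and 0.880 for PDF1.2A (limma; 0.110 unadjusted without the block), and 0 probe sets past the threshold; deviations of same-numbered arrays correlated at 0.0061, -0.10 and 0.31, and those of mock replicate 1 were closest to G3P replicate 2 (0.45), so the numbers were not taken as pairs. The 5-array values of the most alike genes were chosen after the data were seen. Signal over background could not be judged, as detection calls were not used here, so values near 4 have an uncertain size.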
